A study of Homo sapiens with 14 samples.

Results

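The nuclear genes of the mitochondrial oxidative phosphorylation machinery were followed through FoxA1 knockdown and androgen exposure in prostate cancer cell lines. Genes were taken by their symbol in the platform annotation: symbols starting with NDUF (complex I), SDHA to SDHD (complex II), symbols starting with UQCR (complex III), COX4 to COX8 genes (complex IV) and symbols starting with ATP5 (ATP synthase, complex V). This gave 93 genes, measured by 129 probes, among 20046 named genes. Of these, 36 were counted with complex I, 3 with complex II, 8 with complex III, 17 with complex IV and 17 with ATP synthase. The other 12 were taken by name alone: the complex I assembly factors NDUFAF1 to NDUFAF8, the ATP synthase inhibitor ATP5IF1, the pseudogenes ATP5F1EP2 and UQCRBP1, and the antisense RNA NDUFB2-AS1.

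Complexes I and II pass electrons from NADH and succinate to ubiquinone, complex III passes them on to cytochrome c, and complex IV, cytochrome c oxidase, passes them to oxygen. Complexes I, III and IV pump protons out of the matrix, and ATP synthase lets them back in to make ATP. Most subunits are coded in the nucleus and are needed in fixed proportions, and a few core subunits are coded in mitochondrial DNA. The prostate epithelium is known for an unusual mitochondrial metabolism, in which normal secretory cells export citrate instead of oxidizing it. FoxA1 is a forkhead transcription factor that opens chromatin for other factors, the androgen receptor among them.

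Expression was measured on 14 Illumina bead arrays of total RNA in 3 deposited tables. LNCaP, an androgen-sensitive line from a lymph node metastasis, carried an shRNA against FoxA1 (shFoxA1) or a control shRNA (shCtrl). For each shRNA there were 2 numbered arrays whose titles name no medium, 1 array labelled R1881 (a synthetic androgen) and 1 labelled hormone-deprived. The growth protocol names 3 days in charcoal-stripped medium, which lacks steroids, and then 1 nM R1881 for 24 hours in some experiments, and names 10% serum otherwise. LNCaP with FoxA1 siRNA (siFoxA1) or control siRNA (siCtrl), 22RV1, a xenograft-derived line, with a stable FoxA1 or control shRNA, and PC-3M, a metastatic subline of PC-3, labelled FoxA1 (stable overexpression by the design text) or control, had 1 array each. Neither the shRNA sequences nor the number of clones behind a stable line is given in the sources used here. Nothing says that the numbered arrays came from separate cultures, so p-values measure the spread between arrays, which may be technical. In bulk RNA, fewer expressing cells and less RNA per cell cannot be told apart.

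An array's mean probe intensity ranged from 157 to 285 in the LNCaP shRNA table, while the siRNA and 22RV1 table spanned 235 to 447 and PC-3M 208 to 222. Among the LNCaP shRNA arrays, 16229 to 17062 probes were detected on the numbered ones and 18740 to 20174 on the R1881 and hormone-deprived ones. FOXA1 fell in the LNCaP shRNA arrays, by 1.02 on the log2 scale (SE 0.15, limma adjusted p = 0.0131), and was lower in shFoxA1 in all 4 pairs. Its log2 difference was -0.82 in the siRNA pair, -1.11 in the 22RV1 pair and -1.51 in the PC-3M pair, where the array labelled FoxA1 goes against its label. KLK3, which codes for prostate-specific antigen and is an androgen-induced gene, was 0.94 higher on the log2 scale with R1881 in shFoxA1 and 2.22 higher in shCtrl. In the R1881 fit over both lines its difference was 1.58 (SE 0.32, limma adjusted p = 0.105), which did not pass. TMPRSS2 did not pass that fit either (2.05, SE 0.34, limma adjusted p = 0.058). The luminal prostate genes KLK3, TMPRSS2, FOLH1 and HOXB13 were detected in LNCaP. VIM, CAV1, CD44 and AXL, known from PC-3 cells, were detected in PC-3M, and VIM and CAV1 also in LNCaP. Of markers of other cell types, 1 of 4 leukocyte genes (CD14), 2 of 3 endothelial genes, 3 of 5 fibroblast genes, 0 of 3 basal genes and 2 of 4 neuroendocrine genes were detected on any array of the LNCaP shRNA table. Their part in the results was not tested.

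Levels below are log2 intensities after background correction and quantile normalization, and differences are log2 differences, where 0.58 is 1.5-fold. Each gene was read from its brightest probe. Of the 93 genes, 87 were detected on at least 2 of the 8 LNCaP shRNA arrays, and 83 of these on all 8. By class, 35 of 36 complex I genes passed, 3 of 3 in complex II, 8 of 8 in complex III, 13 of 17 in complex IV, 17 of 17 in ATP synthase and 11 of 12 others. The complex IV genes that did not pass were the tissue-restricted paralogs COX4I2, COX6B2, COX7A1 and COX8C. They were detected on 0, 1, 0 and 0 of the 8 arrays, and COX6A2, another such paralog known from muscle, passed with 2. NDUFS6, a complex I subunit, and NDUFB2-AS1 were not detected there either. The brightest probes of each complex, which do not rank the transcripts themselves, were those of NDUFS5 and NDUFA1 of complex I, SDHD and SDHC of complex II, UQCRQ and UQCRH of complex III, COX7C and COX7A2 of complex IV, and ATP5F1B and ATP5F1A, which code for the catalytic beta and the alpha subunit of ATP synthase.

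In the fit over all LNCaP shRNA arrays, FoxA1 knockdown left these genes within a narrow range. None of the 87 passed the test in the fit of 4 shFoxA1 against 4 shCtrl arrays with the medium as a term (limma, Benjamini-Hochberg adjusted p below 0.05), while 940 of all 11892 genes tested did, or 7.9%. At an unadjusted p below 0.05 there were 9 of the 87 (10.3%), against 27.3% of all genes. The differences ran from -0.56 (NDUFAF4) to 0.41 (ATP5MK). None reached 1.5-fold in this fit, a size reached by 12% of all genes tested. The median was -0.08 over the 87 genes, with 63 lower in shFoxA1 and 24 higher, against -0.01 over all genes tested.

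The arrays limited the size of change that could be missed. The 95% interval of the difference in this fit lay wholly within 1.5-fold for 68 of the 87 genes, and its half-width was 0.29 at the median gene. The interval reached 1.5-fold lower for 15 genes and 1.5-fold higher for 4, so a change of that size in those 19 genes was not excluded by these arrays. The genes were also bright as a group, with a median level of 10.81 against 6.89 over all genes tested. Among genes at a mean level of at least 10, the median absolute difference was 0.09 over 54 oxidative phosphorylation genes and 0.20 over 1120 other genes, of which 7.5% passed the test. The median standard error at that brightness was 0.12 and 0.13. Below that level the order turned: the median absolute difference was 0.23 over 33 oxidative phosphorylation genes and 0.20 over 10685 others, of which 8.01% passed the test and none of the 33 did.

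**Figure D1:**
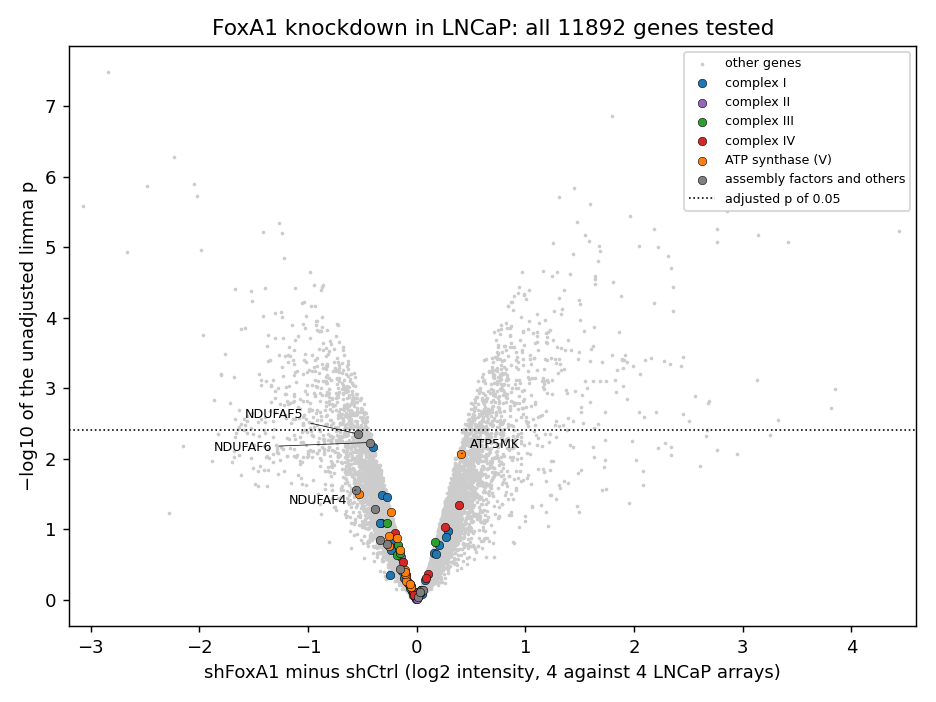
Each point is a gene of the 8-array LNCaP fit, with the log2 difference (shFoxA1 minus shCtrl) on the horizontal axis and the −log10 of the unadjusted limma p on the vertical axis, and the dotted line marks an adjusted p of 0.05. The 87 coloured oxidative phosphorylation genes lie between -0.56 and 0.41, all below the line, and NDUFAF5 lies closest to it.

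The complexes differed little at the median. The median knockdown difference was -0.06 in complex I (26 of 35 genes lower), -0.09 in complex II (3 of 3), -0.10 in complex III (7 of 8) and -0.10 in ATP synthase (14 of 17). In complex IV it was 0.03, with 6 of 13 lower and 7 higher. The class of assembly factors and other non-subunits had the lowest median, -0.27, with 7 of 11 lower. Those 7 were the assembly factors NDUFAF2 to NDUFAF8. The 4 higher ones were NDUFAF1, ATP5IF1 and the pseudogenes ATP5F1EP2 and UQCRBP1, each between 0.01 and 0.05. No test of a difference between classes was made.

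The 3 lowest differences were those of NDUFAF4 and NDUFAF5, complex I assembly factors, which help build the enzyme and are not part of the finished complex, and of the ATP synthase gene ATP5MC1. The rule for naming took only genes past the test from this fit. NDUFAF6, NDUFV2, ATP5MC1, ATP5MC2, ATP5PB, UQCRHL, NDUFA6, NDUFAF3, NDUFB1, NDUFB2, NDUFB9 and NDUFV3 are outside that rule and are named after their values were seen. NDUFAF5, a methyltransferase-like factor of early complex I assembly, had levels of 8.18, 8.53, 8.64 and 8.78 on the shFoxA1 arrays (replicates 1 and 2, R1881, hormone-deprived), against 9.16, 8.87, 9.18 and 9.10 on the shCtrl arrays. All 4 shFoxA1 levels were below all 4 shCtrl levels. The difference was -0.54 (SE 0.14, limma adjusted p = 0.0527, 95% interval -0.86 to -0.22), just short of the test. A second, dimmer NDUFAF5 probe gave -0.69 (SE 0.12) and passed when the 22177 probes detected on at least 2 arrays were each tested (limma adjusted p = 0.0202), the only oxidative phosphorylation probe to do so. Over 19 other settings NDUFAF5 stayed lower in shFoxA1, with an adjusted p between 0.0197 and 0.188, below 0.05 in 7 of them.

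NDUFAF6, another complex I assembly factor, had levels of 7.13, 7.07, 7.74 and 8.36 in shFoxA1, against 7.70, 7.50, 8.25 and 8.59 in shCtrl. Each pair was lower in shFoxA1, but the groups overlapped. Within each shRNA the level was lowest on the numbered arrays, whose medium is not named. R1881 minus hormone-deprived was -0.61 in shFoxA1 and -0.34 in shCtrl. Its difference was -0.43 (SE 0.12, limma adjusted p = 0.0586). NDUFAF4, which acts with NDUFAF3 in assembly, had 7.41, 8.07, 8.09 and 8.51 in shFoxA1 and 8.81, 8.58, 8.19 and 8.73 in shCtrl. The replicate 1 pair, at -1.39, was the widest and the R1881 pair, at -0.11, the narrowest, for a difference of -0.56 over all (SE 0.21, limma adjusted p = 0.133). A dimmer NDUFAF4 probe, detected on all 8 arrays, had another pattern. It had 6.96, 6.92, 7.88 and 8.36 in shFoxA1, against 7.63, 7.67, 8.39 and 8.32 in shCtrl. Its R1881 pair was clearly lower in shFoxA1 and its hormone-deprived pair was not, for a difference of -0.48 (SE 0.15).

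Among subunits, NDUFV2, an iron-sulfur subunit at the NADH end of complex I, had levels of 11.28, 11.34, 11.28 and 11.05 in shFoxA1, against 11.80, 11.69, 11.76 and 11.30 in shCtrl. Its 4 pairs were all lower in shFoxA1, and only the hormone-deprived shCtrl array overlapped the shFoxA1 levels. The difference was -0.40 (SE 0.11, limma adjusted p = 0.0625). ATP5MC1, 1 of the genes for the membrane rotor subunit c of ATP synthase, had 9.52, 10.05, 10.01 and 9.79 in shFoxA1, against 10.80, 10.66, 9.94 and 10.10 in shCtrl. The numbered arrays were far apart (-1.28 and -0.61), and the R1881 pair went the other way (0.07). The difference over all was -0.53 (SE 0.21, limma adjusted p = 0.142).

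The highest member was ATP5MK, a small subunit that links ATP synthase dimers. Its levels were 7.36, 7.24, 7.54 and 7.03 in shFoxA1, against 6.73, 6.85, 7.10 and 6.86 in shCtrl. It was higher in shFoxA1 in all 4 pairs, with a difference of 0.41 (SE 0.12, limma adjusted p = 0.0703), and only the R1881 shCtrl array overlapped the shFoxA1 levels. COX7B2, a paralog of the complex IV subunit COX7B that is known mainly from testis, was detected on all 8 arrays. Its difference was 0.39 (SE 0.17, limma adjusted p = 0.173), with the replicate 1 pair at 0.92 and the hormone-deprived pair at -0.06.

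**Figure D2:**
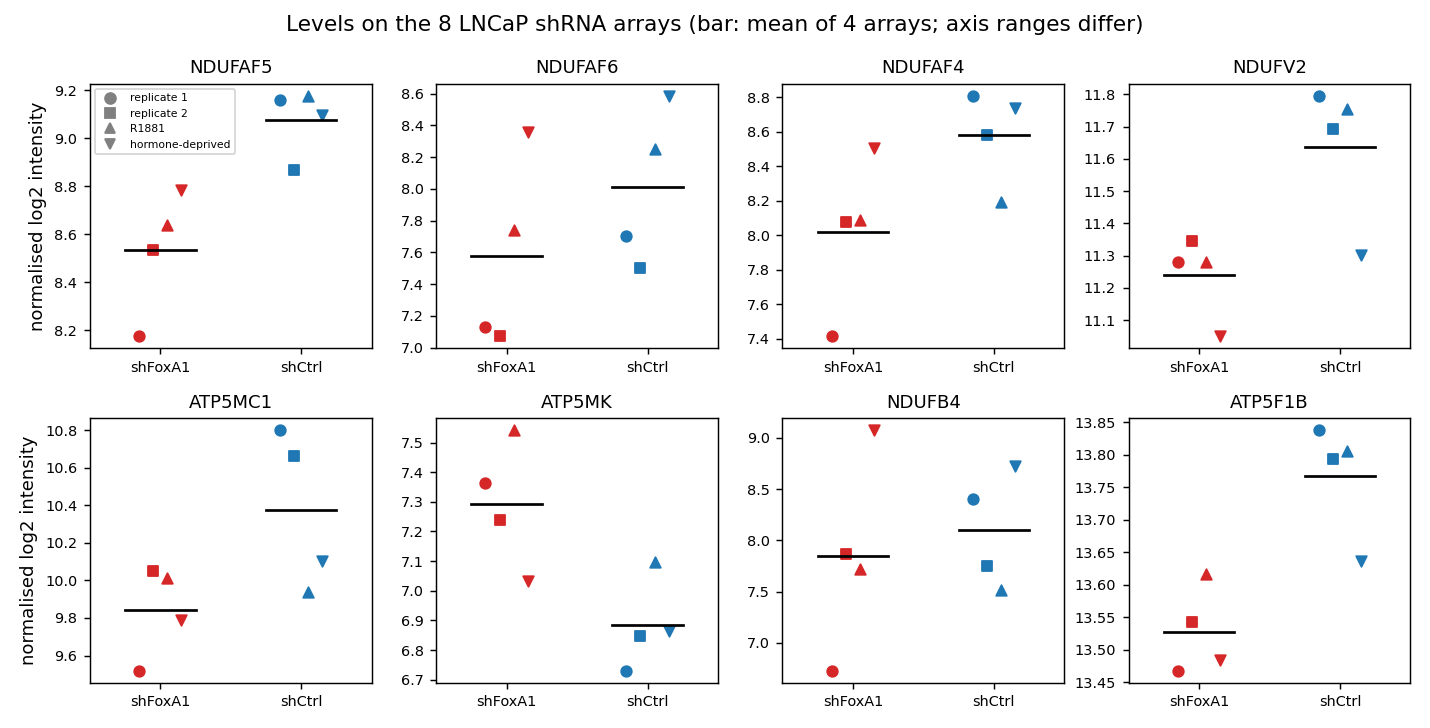
Points are normalised log2 intensities of 8 genes on the 4 shFoxA1 and 4 shCtrl LNCaP arrays, with a shape for each replicate or medium and a bar at the mean of 4 arrays; axis ranges differ between panels. NDUFAF5 and ATP5F1B show groups that do not overlap, while NDUFB4 spreads from 6.73 to 9.07 within shFoxA1.

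Groups that did not overlap were found for 5 of the 87 genes, ATP5F1B, ATP5PB, NDUFAF5, NDUFS5 and UQCRHL, all lower in shFoxA1. Over all genes tested the share was 11.2%, so 5 is below that background. Likewise 14 genes were lower in all 4 pairs, or 16.1%, against 18.5% of all genes tested, and 4 (ATP5MK, NDUFB1, NDUFB2 and UQCRQ) were higher in all 4. Together 18 of the 87 had 1 sign in all 4 pairs, against 4279 of all 11892 genes tested (36%), so this count is also below the background. ATP5F1B had levels of 13.47, 13.54, 13.62 and 13.48 in shFoxA1, against 13.84, 13.79, 13.81 and 13.64 in shCtrl. Its difference was -0.24 (SE 0.11, limma adjusted p = 0.199). UQCRHL is a near-identical copy of UQCRH, and ATP5F1EP2 and UQCRBP1 are copies of ATP5F1E and UQCRB, so the probes of these genes may share signal. Of 25 genes with several detected probes, 19 had all probes on the same side of 0 in this comparison.

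The pairs of arrays differed in where the genes lay, with the numbered arrays paired by their number alone. The median difference was -0.26 in the replicate 1 pair, where 76 of 87 genes were lower in shFoxA1, and -0.13 in the replicate 2 pair, where 60 were lower. In the R1881 pair it was 0.10, with 52 genes higher, and in the hormone-deprived pair -0.01, with 41 higher and 45 lower. Over all genes tested the median lay between -0.02 and 0.00 in each pair. The member mean was 10.12, 10.29, 10.27 and 10.30 on the shFoxA1 arrays and 10.41, 10.40, 10.21 and 10.32 on the shCtrl arrays. In the replicate 1 pair other markers also stood apart: ENO2, known from neurons, had 8.86 in shFoxA1 against 5.91 in shCtrl, VIM 9.04 in shFoxA1 against 7.64 in shCtrl and CAV1 5.90 in shFoxA1 against 5.15 in shCtrl. The summed intensity of the 2 detected neuroendocrine markers, ENO2 and CHGA, was 63.1 to 510 in shFoxA1, highest in replicate 1, and 68.1 to 128 in shCtrl. CHGA did not rise with ENO2 in replicate 1, at 5.51 in shFoxA1 against 5.74 in shCtrl. The summed intensity of VIM and CAV1 was 219 to 584 in shFoxA1, again highest in replicate 1, and 178 to 292 in shCtrl. Of the markers detected on any of the 8 arrays, 1 of 2 neuroendocrine, 1 of 1 leukocyte, 3 of 3 fibroblast and 0 of 2 endothelial ones were higher in shFoxA1 in the replicate 1 pair. Several of these directions rest on values near the detection limit. The fibroblast gene LUM and the endothelial gene PECAM1 were detected on neither replicate 1 array. The fibroblast genes COL1A1 and DCN, at 5.61 and 5.56, and CAV1 were detected only on the shFoxA1 one. The endothelial gene VWF fell over the 8 arrays by 0.97 (limma adjusted p = 0.0106). The part of these markers in the result was not tested. Without replicate 1 of both lines the median over the members was -0.02, and in the R1881 and hormone-deprived pairs alone it was 0.02.

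For the numbered arrays alone, as a contrast of a fit of 6 group means, the median was -0.17 and 73 of 87 genes were lower in shFoxA1. The differences ran from -0.95 (NDUFAF4) to 0.59 (COX7B2), so they passed 1.5-fold both ways there, unlike in the fit over all arrays. None of the 87 passed (limma, smallest adjusted p = 0.0872, for ATP5MC1), against 315 of all genes (2.65%). At an unadjusted p below 0.05 there were 14 (16.1%), against 25.1% of all genes. Without shFoxA1 replicate 2, the difference was -1.21 for ATP5MC1 and -1.28 for NDUFAF4. That fit holds 1 numbered shFoxA1 array, and its spread comes from the 2 numbered shCtrl arrays, so the lone array is assumed to vary like them. The difference between the numbered pairs and the other pairs, a comparison chosen after the values were seen, had a median of -0.19 over the 87 genes (72 below 0). It gave no call for these genes or for any of the 11892 genes, a share of 0%, with 797 genes at an unadjusted p below 0.05, of which 3 were oxidative phosphorylation genes (ATP5MC1, UQCR10 and NDUFAF3). The numbered arrays also had fewer probes detected, and the part of that in the result was not tested.

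The genes whose level over the 8 arrays was most like the mean of the 87 were RPS2 (Pearson r = 0.967), FAM86FP (0.965), POLN (0.955), DHRS4L2 (0.954) and PQBP1 (0.949). These are descriptions over 8 arrays that share their normalization.

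The promoters of the genes were searched for short words bound by factors known to control respiratory genes, and for a forkhead and an androgen receptor word. Sequences were the 300 bases from 250 before to 50 after the RefSeq gene start in GRCh38.p14, available for 76 of the 93 genes in 94 windows, some overlapping. The words, on both strands, were GCATGCGC for NRF1, CCGGAAG for ETS factors such as GABPA, AAGATGGC for YY1, TGTTTAC for forkhead factors and AGAACA for an androgen receptor half-site. Below are the windows of the lowest member, of the one nearest the test, of the one with the widest androgen difference and of the highest, 5′ to 3′ on the gene's strand, with every word found in capitals.
NDUFAF4 (chr6:96897842-96898141, minus strand): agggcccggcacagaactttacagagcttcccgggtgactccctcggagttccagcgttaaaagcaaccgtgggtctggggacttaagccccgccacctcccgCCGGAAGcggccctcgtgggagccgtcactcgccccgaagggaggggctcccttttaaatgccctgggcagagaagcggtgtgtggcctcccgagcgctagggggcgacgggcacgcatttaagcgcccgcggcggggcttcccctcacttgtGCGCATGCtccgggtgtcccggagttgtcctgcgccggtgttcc
NDUFAF5 (chr20:13784778-13785077, plus strand): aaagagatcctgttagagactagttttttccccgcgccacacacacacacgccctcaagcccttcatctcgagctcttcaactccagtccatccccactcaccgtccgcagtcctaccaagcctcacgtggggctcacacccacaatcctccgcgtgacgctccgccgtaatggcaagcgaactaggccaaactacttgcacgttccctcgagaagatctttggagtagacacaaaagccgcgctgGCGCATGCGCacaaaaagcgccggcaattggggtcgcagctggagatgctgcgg
NDUFB4 (chr3:120596086-120596385, plus strand): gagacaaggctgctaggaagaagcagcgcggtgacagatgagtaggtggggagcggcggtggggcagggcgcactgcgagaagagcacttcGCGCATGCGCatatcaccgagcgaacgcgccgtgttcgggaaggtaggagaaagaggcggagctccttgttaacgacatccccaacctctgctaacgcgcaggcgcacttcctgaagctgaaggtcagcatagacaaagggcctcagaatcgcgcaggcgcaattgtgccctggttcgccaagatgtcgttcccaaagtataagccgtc
ATP5MK (chr10:103396426-103396725, minus strand): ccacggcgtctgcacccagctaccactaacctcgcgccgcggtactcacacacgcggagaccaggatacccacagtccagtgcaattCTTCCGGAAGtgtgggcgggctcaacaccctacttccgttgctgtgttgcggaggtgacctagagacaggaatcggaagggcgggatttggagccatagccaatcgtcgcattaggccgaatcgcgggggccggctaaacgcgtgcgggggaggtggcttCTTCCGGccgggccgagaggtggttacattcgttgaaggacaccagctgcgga
The NDUFAF5 and NDUFB4 windows hold the NRF1 word on both strands at 1 place, the NDUFAF4 window holds an ETS and an NRF1 word, and the ATP5MK window holds the ETS word on both strands at 1 place and again beyond it. None of these 4 windows holds the forkhead word or the androgen half-site, which says only that those letters are absent from these 300 bases.

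Over all 94 windows, the NRF1 word was in 16 (17%), against 4.84% of the windows of all genes tested and 3.05% of all windows of the table. The ETS word was in 24 (25.5%), against 16.5% and 10.3%, and the YY1 word in 14 (14.9%), against 4.58% and 2.89%. At least 1 of these 3 words was in 42 windows (44.7%), against 23.5% of the windows of all genes tested. The forkhead word was in 3 windows (3.19%), against 2.63% and 3.42%, and the androgen half-site in 12 (12.8%), against 10.2% and 14.8%. In the windows of the 940 genes that passed the knockdown test, the forkhead word was in 3.24% and the NRF1 word in 3.87%. A word in a window is a description and not a bound site.

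**Figure D3:**
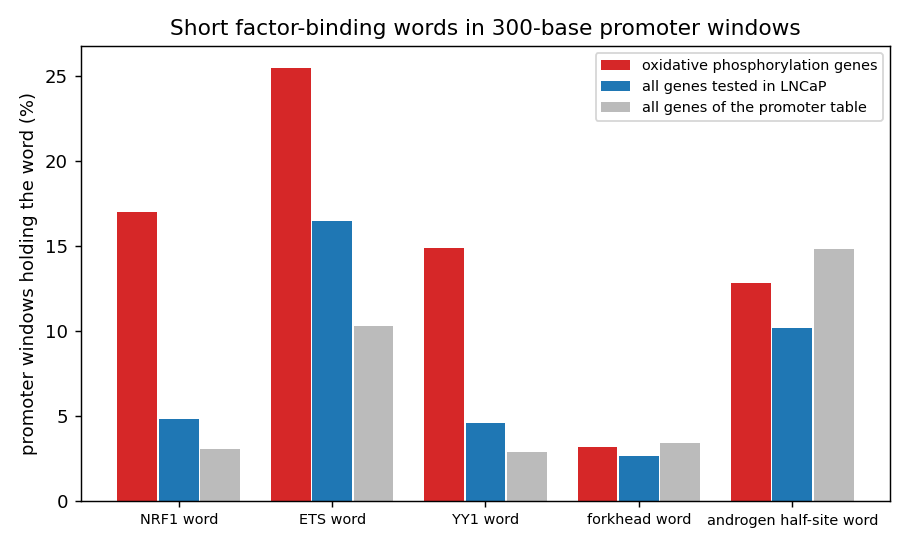
Bars give the percentage of 300-base promoter windows that hold each short word, for the oxidative phosphorylation genes, all genes tested in LNCaP and all genes of the promoter table. The NRF1 word stands at 17% in the oxidative phosphorylation genes, against 4.84% in the genes tested, and the forkhead word at 3.19% against 2.63%.

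Other genes of mitochondrial energy metabolism, from lists written with earlier results of these data known, were read from the same fit, in which 7.9% of all genes passed. None of 28 assembly factors outside the NDUFAF genes passed (median -0.12) and none of 11 electron carrier and ubiquinone genes (median -0.10). Of 15 tricarboxylic acid cycle genes 2 passed (13.3%). IDH2, the mitochondrial NADP-dependent isocitrate dehydrogenase, rose by 0.73 (SE 0.17, limma adjusted p = 0.0394), and DLST, a subunit of the oxoglutarate dehydrogenase complex, fell by 0.64 (SE 0.11, limma adjusted p = 0.0205). The DLST levels in shFoxA1, 5.21, 5.42, 4.86 and 5.25, were near the detection limit. The IDH2 pairs ran from 0.19 in replicate 1 to 1.15 with R1881. Of 12 biogenesis regulators, TFAM, which packages and transcribes mitochondrial DNA, fell by 0.61 (SE 0.15, limma adjusted p = 0.0485), and the other 11 did not pass (8.33% called). Of 79 genes with a mitochondrial ribosome name, which take in the pseudogenes MRPL42P5 and MRPS31P5 and the antisense RNA MRPL20-AS1, 2.53% passed. MRPL12 fell by 0.63 (SE 0.14, limma adjusted p = 0.0356) and MRPS27 by 0.64 (SE 0.14, limma adjusted p = 0.0345). The median was -0.28 over the 79, with 72 below 0, and -0.28 over the 76 protein-coding ones, with 70 below 0. Over the 79 it was -0.59, -0.29, -0.07 and -0.14 in the replicate 1, replicate 2, R1881 and hormone-deprived pairs. Each of these 4 medians lay below that of the oxidative phosphorylation genes in the same pair.

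The other FoxA1 pairs had 1 array a group and no test. In the LNCaP siRNA pair the median difference over 86 detected genes was -0.05, with 56 lower in siFoxA1, against -0.03 over all 13252 genes. None was at least 1.5-fold higher, against 7.19% of all genes, and 2 were at least 1.5-fold lower (2.33%), against 6.56%. These 2 were assembly factors: NDUFAF4 stood at 7.73 in siFoxA1 against 8.39 in siCtrl, and NDUFAF2 at 10.34 in siFoxA1 against 10.98 in siCtrl. NDUFAF5 differed by -0.06. The highest were the complex I subunits NDUFA10 (0.46) and NDUFC2 (0.44).

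In the 22RV1 pair the median over 84 detected genes was -0.15, with 69 lower in shFoxA1, against -0.01 over all 13282 genes. All 11 detected complex IV genes were lower, with a median of -0.20 and none at least 1.5-fold, and ATP synthase also had a median of -0.20, with 15 of 17 lower. None was at least 1.5-fold higher, against 7.45% of all genes, and 6 were at least 1.5-fold lower (7.14%), against 7.88%, a share near the background. They were UQCRB (-0.79), which binds ubiquinone in complex III, UQCR10 (-0.73) of the same complex, the assembly factor NDUFAF6 (-0.68), and the complex I subunits NDUFB9 (-0.61), NDUFA6 (-0.59) and NDUFB4 (-0.59). UQCRB had 10.03 in shFoxA1 against 10.82 in shCtrl. NDUFV1, the subunit of complex I that binds NADH, was the highest at 0.52, and the complex III core subunit UQCRC2 followed at 0.42. The shFoxA1 array was dimmer, with a mean intensity of 235 against 325 in shCtrl. Under median scaling, which keeps such differences in shape, all genes moved to a median of -0.44 and the members to -0.68, 0.24 below it. Then 62 members were at least 1.5-fold apart, and so were 5192 genes over all, against 2035 genes with quantile normalization.

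The PC-3M pair had the narrowest range. The median over 85 detected genes was 0.01 on the array labelled FoxA1 against control, with 47 higher and 38 lower, and the range was -0.27 (NDUFB5) to 0.42 (NDUFAF5). COX7C was at -0.26 and NDUFV1 at 0.34. None was at least 1.5-fold higher, against 5.19% of all 11358 genes, and none at least 1.5-fold lower, against 5.74%. NDUFAF5 stood at 9.11 on the array labelled FoxA1 against 8.69 in control.

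**Figure D4:**
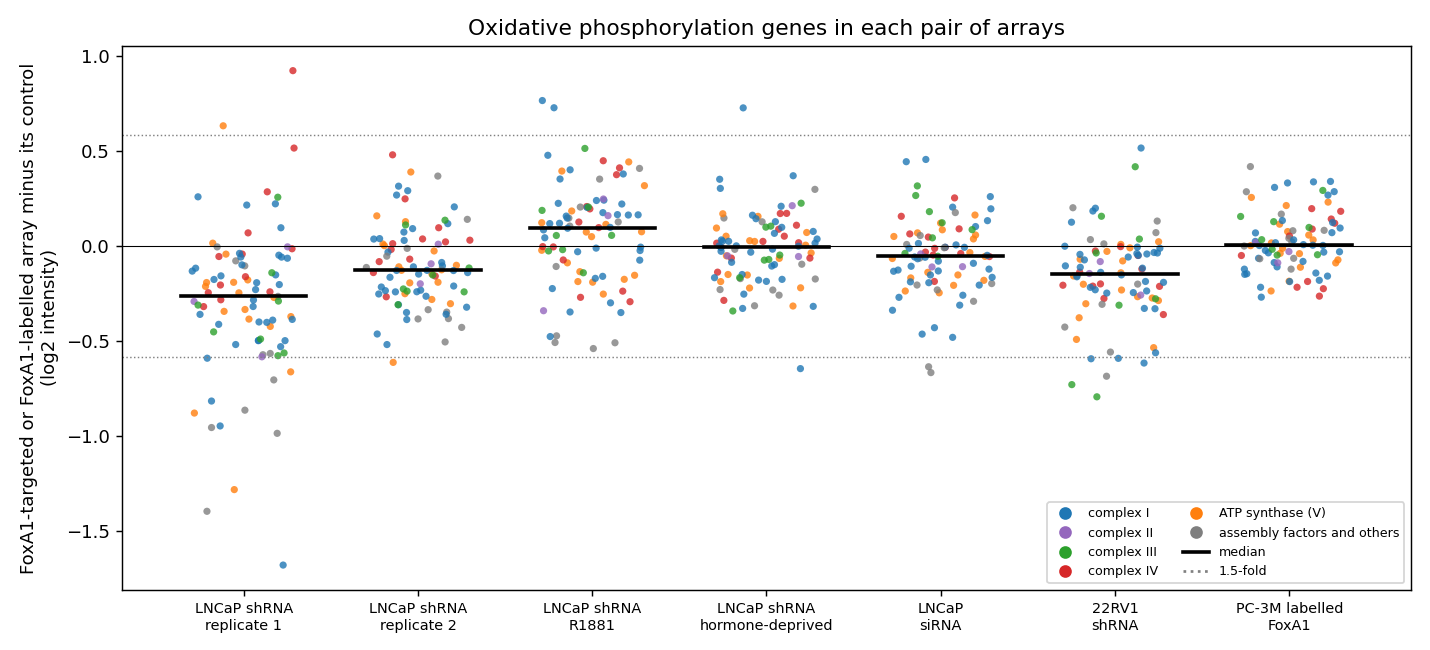
Points are log2 differences of the detected oxidative phosphorylation genes, the FoxA1-targeted or FoxA1-labelled array minus its control, in each of 7 pairs, coloured by complex, with a bar at the median and dotted lines at 1.5-fold. The replicate 1 pair is the lowest and most spread (median -0.26), and the PC-3M pair is the narrowest, from -0.27 to 0.42.

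Androgen exposure was compared as R1881 minus hormone-deprived, with the shRNA line as a term. No oxidative phosphorylation gene passed, against 30 of all 11892 genes (0.252%). The check gene KLK3 did not pass either, at 1.58, so a difference of that size can fall short in this fit. At an unadjusted p below 0.05 there were 5 of the 87 (5.75%), against 11.6% of all genes (1378 genes), and the smallest adjusted p was 0.207. The median was -0.10, with 54 lower with R1881, against 0.00 over all genes. Under median scaling all genes moved to 0.18 and the members to 0.22, so the sign of the median turned with the scaling. The 95% interval of the difference lay within 1.5-fold for only 37 of the 87 genes, so this comparison was less precise than the knockdown one.

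NDUFB4, an accessory subunit of complex I, had the widest difference. Its level was 7.72 with R1881 against 9.07 hormone-deprived in shFoxA1, and 7.52 with R1881 against 8.72 hormone-deprived in shCtrl. Both lines were lower with R1881, with a difference of -1.28 (SE 0.44, limma adjusted p = 0.308). The standard error was large because the numbered shFoxA1 arrays stood apart at 6.73 and 7.87, against 8.40 and 7.75 in shCtrl. A dimmer NDUFB4 probe, detected on 5 of 8 arrays, differed by -0.32 in shFoxA1 and -0.21 in shCtrl. UQCR11, a small complex III subunit, had 6.78 with R1881 against 5.90 hormone-deprived in shFoxA1, and 6.72 with R1881 against 6.24 hormone-deprived in shCtrl. It stood higher with R1881 in both lines (0.68, SE 0.19, limma adjusted p = 0.207).

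NDUFV1 had 9.34 with R1881 against 9.76 hormone-deprived in shFoxA1, and 8.94 with R1881 against 9.91 hormone-deprived in shCtrl. It was lower with R1881 in both (-0.70, SE 0.22, limma adjusted p = 0.255). ATP5IF1, which blocks ATP hydrolysis by ATP synthase, had 10.23 with R1881 against 10.92 hormone-deprived in shFoxA1, and 10.11 with R1881 against 10.62 hormone-deprived in shCtrl. Its second probe differed by -0.66 in shFoxA1 and 0.12 in shCtrl. In a fit to the R1881 and hormone-deprived arrays alone, NDUFB4, NDUFV1, ATP5IF1 and UQCR11 passed (limma adjusted p = 0.000152, 0.0286, 0.0475 and 0.0284). These were 4 of the 87 genes, beside 875 of all 11892 genes, in a fit that rests on 1 residual degree of freedom.

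Line by line there was 1 array a condition. In shFoxA1, 1 of 86 detected genes was at least 1.5-fold higher with R1881 (UQCR11, 1.16% against 5.95% of all 11051 genes) and 3 were lower (NDUFB4, ATP5IF1 and NDUFAF6, 3.49% against 6.65%). In shCtrl, 1 of 86 was higher (NDUFAF2, at 0.71, 1.16% against 6.08% of all 11237 genes) and 5 were lower (NDUFB4, NDUFV1, NDUFV3, ATP5MC2 and SDHC, 5.81% against 6.11%). Dimmer probes did not reach that size in shCtrl. They gave 0.25 for SDHC and -0.08 for ATP5MC2, both detected on all 8 arrays, and -0.28 for NDUFV3, detected on 4. NDUFB4 was the only gene past 1.5-fold in both lines. NDUFAF2, an assembly factor of complex I, had 9.36 with R1881 against 9.25 hormone-deprived in shFoxA1, and 9.83 with R1881 against 9.12 hormone-deprived in shCtrl. Under median scaling the shCtrl median over the members moved to 0.35, beside 0.34 over all genes. Then 21 members were at least 1.5-fold apart, and so were 3395 genes over all, against 1370 with quantile normalization.

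The difference in R1881 effect between shFoxA1 and shCtrl, tested as an interaction, was past the threshold for none of the 87 genes and none of all 11892, a share of 0% (limma). At an unadjusted p below 0.05 there were 191 genes of all and none of the 87. The median interaction was 0.10 over the members, with 53 above 0. The widest were NDUFA5 (-1.08, SE 0.48, limma adjusted p = 1.00), whose probe was detected on 5 of 8 arrays, and NDUFV3 (0.81, SE 0.43, limma adjusted p = 1.00).

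**Figure D5:**
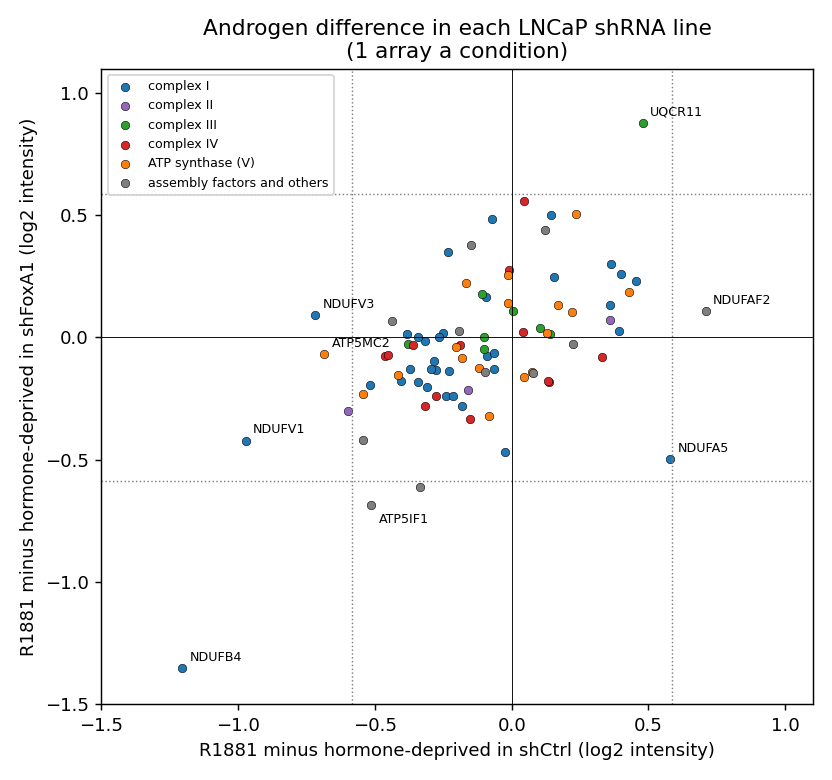
Points are the 87 oxidative phosphorylation genes, with the log2 difference R1881 minus hormone-deprived in shFoxA1 on the vertical axis and in shCtrl on the horizontal axis, 1 array a condition, and dotted lines at 1.5-fold. NDUFB4 stands apart at -1.35 in shFoxA1 and -1.20 in shCtrl, and UQCR11 lies at 0.88 and 0.48.

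The differences between cell lines were wider than those with FoxA1 knockdown or androgen. The 22RV1 control array was set against the LNCaP control siRNA array, a comparison chosen after values were seen, with 1 array a line and different control constructs. Of 86 detected genes, 4 were at least 1.5-fold higher in 22RV1 (4.65%), against 27% of all 14003 genes, and 16 were at least 1.5-fold lower (18.6%), against 24.4%. COX7B2 was the lowest, at 4.18 and not detected in 22RV1 against 8.75 in LNCaP, which is at least 19.1-fold lower against the detection limit of that array. It was not detected in the PC-3M arrays either. ATP5MK had 4.93 in 22RV1 against 8.16 in LNCaP, and NDUFB4 had 5.55 in 22RV1 against 8.23 in LNCaP. On the PC-3M arrays, normalized apart from these, ATP5MK stood at 8.50 and 8.46 and NDUFB4 at 5.49 and 5.20 on the array labelled FoxA1 and the control. The highest in 22RV1 were ATP5MF of ATP synthase (12.94 in 22RV1 against 12.02 in LNCaP) and NDUFB8 of complex I (12.89 in 22RV1 against 11.99 in LNCaP). Each of these genes was read from 1 probe position, and the part of sequence differences between the lines under a probe was not tested.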

How the data were processed

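RNA of LNCaP, 22RV1 and PC-3M cells was hybridized to 14 Illumina arrays, and probe values came from GenomeStudio, with no version, per the submitters' processing notes. In the tables deposited for LNCaP shRNA and PC-3M, intensity was background-subtracted by the authors, with values below 0, and each probe had a detection p-value, per the file headers. In the deposited siRNA and 22RV1 table, intensity was raw, and the columns headed as detection p-values held whole numbers and were left out. The deposited series matrix, linear intensity quantile normalized within sets as its sorted values show, served as an alternative only.

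Each table was processed alone in R 4.3.3 with limma 3.58.1: normexp background (from detection p-values, or from the mode and the spread below it), offset 16, quantile normalization, log2. A probe was detected at p below 0.05, or above the mode plus 1.645 SD. Probes detected on at least 2 of 8 arrays were kept and each gene read from its brightest. The fit to the 8 LNCaP shRNA arrays had knockdown and medium as terms (4 residual and 4.39 prior degrees of freedom), and a fit of 6 group means had 2 residual ones. Adjustment was Benjamini-Hochberg over 11892 genes, two-sided. Of the probes, 30113 had 1 gene symbol and 8 several, and 0 symbols were changed by RefSeq.

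Named genes were those past a test, the 2 widest each way in each pair, the 2 brightest of each complex and tissue-restricted paralogs, and the genes outside this rule are listed in the results as named after their values were seen. Members, lists and tests were chosen with earlier results of these data known. Alternatives were background correction, offset, scaling, filter, probe choice, the matrix, the medium term, the replicate block and left-out arrays. Deviations of same-numbered arrays correlated at -0.174, so the main fits did not take the numbers as pairs. The replicate 1 and replicate 2 pairs of the results match arrays by number alone. Some genes of the marker lists were not analysed here.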

Additional observations from a re-analysis of the deposited data

Results flagged for a closer look

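ATP5MK was higher in shFoxA1 in all 4 LNCaP shRNA pairs (0.63, 0.39, 0.44 and 0.17 on the log2 scale), while the 22RV1 pair, 4.66 in shFoxA1 against 4.93 in shCtrl, went the other way at -0.27. NDUFAF5 was lower in shFoxA1 in all 4 LNCaP shRNA pairs (-0.98, -0.33, -0.54 and -0.31) and stood at 0.071 in the 22RV1 pair. The difference between the lines was not tested for either gene, since 22RV1 had 1 pair of arrays.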

How the results depend on the processing

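Against 0 members past the test in the LNCaP knockdown, the crossed pairing of numbers (added after seeing the data) and the mean of detected probes gave 1 (NDUFAF5), and the deposited matrix, detection on all 8 arrays, no background correction and offset 50 gave 3 each (NDUFAF5, NDUFAF6 and NDUFV2), while 1402, 1058, 1232 and 1088 genes passed over all, against 940. Median scaling gave 6, with 1456 genes over all, and moved the median of the members to -0.32 beside -0.15 over all genes; the cause was not tested. With the replicate block the count stayed at 0 and 529 genes passed over all, against 940, and 55 against 315 for the numbered arrays. The count was 0 to 0 over the fits leaving out single arrays or replicate 1, while calls over all genes ranged from 120 to 725, and fell to 52 without the R1881 pair, to 123 without the medium term and to 266 with no filter. For the numbered arrays 2 members passed with the crossed pairing, 1 with the deposited matrix and 1 with no background correction (ATP5MC1), and 0 to 2 when leaving out an array, with 0 to 974 genes over all; the lone array was assumed to vary like the other numbered group, the only one left with 2 arrays. Crossed pairing gave 1138 and 1151 calls over all genes. For R1881, 4 members passed in the fit to the 4 R1881 and hormone-deprived arrays alone, which rests on 1 residual degree of freedom, and median scaling moved the median to 0.22 and that of the interaction to -0.24 beside -0.26 over all genes. At a fold of 2 the counts were 0 in the 22RV1 and siRNA pairs and 1 in each R1881 pair. The mean of detected probes gave 3 members in 22RV1, 1 in the siRNA pair and 3 in the shCtrl R1881 pair, and cyclic loess, the deposited matrix and offset 50 gave 3 in 22RV1. Median scaling gave 62 in 22RV1, with 5192 genes over all against 2035, and 21 in the shCtrl R1881 pair, with 3395 against 1370. Calls over all genes for R1881 ran from 3 with no filter to 875 in the 4-array fit. The PC-3M and interaction counts stayed at 0 under every alternative run. The number of arrays limits all of these values, and dim genes have wider errors.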
